A study of Homo sapiens with 3 samples.

Results

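The ETS genes code for transcription factors that share a DNA-binding domain, and 10 of them are described here: the epithelial factors ELF3, ELF5, EHF and SPDEF, their broadly expressed relative ELF1, the ETV1, ETV4 and ETV5 group, and ETS1 with ETS2. They were taken by exact symbol from a table of 26485 gene entries, and all 10 were found. The RNA was from CAMA1, a long-established line of human breast cancer cells, labelled as positive for the estrogen receptor (ER) and amplified for FGFR1. All 3 libraries belong to 1 group, control cells below passage 10 that had spent 48 h without estradiol, and the series design calls them biological replicates. No treated group was analysed here, no label gives an FGF treatment, and a single cell line stands for the disease. Poly-A RNA was sequenced to 26473939, 26592335 and 30745412 counts in replicates 1, 2 and 3.

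ETS proteins bind DNA around a GGAA core, and family members differ in the tissues that express them and in the signals that control them. ELF3, ELF5, EHF and SPDEF are known mainly from epithelia: ELF5 drives the alveolar, milk-producing fate of the mammary gland, and SPDEF is a factor of secretory and luminal cells. ETV1, ETV4 and ETV5 form the PEA3 group, which FGF receptors switch on through ERK in many developing tissues, where the repressor CIC holds them off until ERK signalling relieves it. ETS1 and ETS2 are direct ERK substrates, ETS1 being best known from lymphoid, endothelial and stromal cells.

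Upstream sequences of 5 of these genes are given. They lie before start sites of genes at both ends of the expression range, and each is a stretch that held a motif match. RefSeq (GRCh38.p14) gave 16 windows of 250 bases before a start site for 7 of the 10 genes, namely ELF1, ELF3, ELF5, EHF, SPDEF, ETV1 and ETS2. The windows were searched on both strands for the CIC octamers TGAATGAA, TCAATGAA and TGAATGGA, the ETS motif CCGGAAGT, the forkhead motif TGTTTAC and the TATA motif TATAAA. Bases next to the start that the deposited table counts as exon are left out below, the strand is that of the gene, and capitals mark a motif match. The windows not shown, which include those of ETS2 and the others of EHF and ETV1, held no match, except 1 of ELF1. The stretches are chr6:34556334-34556579 (minus strand) for SPDEF, chr1:202010337-202010561 (plus) for ELF3, chr11:34632316-34632463 (plus) for EHF, chr11:34511800-34511974 (minus) for ELF5 and chr7:13991426-13991675 (minus) for ETV1.
SPDEF: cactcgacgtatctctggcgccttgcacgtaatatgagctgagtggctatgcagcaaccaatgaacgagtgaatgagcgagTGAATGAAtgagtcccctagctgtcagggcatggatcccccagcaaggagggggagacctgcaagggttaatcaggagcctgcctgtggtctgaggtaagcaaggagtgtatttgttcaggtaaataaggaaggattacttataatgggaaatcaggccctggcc
ELF3: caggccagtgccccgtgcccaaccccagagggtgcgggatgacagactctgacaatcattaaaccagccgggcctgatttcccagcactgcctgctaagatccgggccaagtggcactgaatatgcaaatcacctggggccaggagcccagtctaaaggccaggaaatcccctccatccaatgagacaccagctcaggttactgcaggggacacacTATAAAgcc
EHF: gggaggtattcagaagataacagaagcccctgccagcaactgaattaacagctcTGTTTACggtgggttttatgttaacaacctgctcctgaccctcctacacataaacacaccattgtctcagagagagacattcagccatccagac
ELF5: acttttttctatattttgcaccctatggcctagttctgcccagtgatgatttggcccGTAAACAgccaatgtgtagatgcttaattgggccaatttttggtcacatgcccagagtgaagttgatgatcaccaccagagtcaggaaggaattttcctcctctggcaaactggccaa
ETV1: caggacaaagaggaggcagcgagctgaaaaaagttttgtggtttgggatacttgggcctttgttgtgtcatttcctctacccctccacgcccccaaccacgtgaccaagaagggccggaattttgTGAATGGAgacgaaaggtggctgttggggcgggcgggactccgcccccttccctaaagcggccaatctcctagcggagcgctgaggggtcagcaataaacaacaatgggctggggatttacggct

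SPDEF held TGAATGAA 169 bases before its start, and 1 of the ETV1 windows held TGAATGGA 125 bases before its start. In all RefSeq windows of this length, 35116 in number, TGAATGAA occurred in 1.40% and TGAATGGA in 0.832%. A CIC octamer, as a string of letters, stood before the most abundant and before one of the least abundant of the 10 genes. For the neighbouring genes EHF and ELF5 on chromosome 11, 1 of the EHF windows and the ELF5 window held the forkhead motif, against 2.98% of all windows. It lay 196 bases before that EHF start and 193 bases before the ELF5 start, on opposite strands relative to the gene. Both of these starts lie inside the deposited spans of their genes, and the other EHF window held no match. TATAAA was found 34 bases before the ELF3 start and 29 bases before 1 ELF1 start, which lies outside the deposited ELF1 exons, against 10.7% of all windows. CCGGAAGT and TCAATGAA were in none of the 16 windows, and in 3.42% and 0.635% of all windows. The observed over expected CpG ratio of the windows was 0.387 for SPDEF, 0.190 for ELF3, 0.120 for ELF5, and 0.263 and 0.145 for EHF, all below the median of 0.558 over all windows, whereas the ETS2 windows had 0.656 and 0.830. The windows of ELF1 (0.407, 0.775 and 0.887) and of ETV1 (0 to 0.874) lay on both sides of that median. A match is a description of letters and was not tied to binding here.

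SPDEF was by far the most abundant of the 10 transcripts, and the PEA3 group and ETS1 were close to or at 0. Levels are TPM, the deposited counts divided by the deposited gene length and scaled so that each library has the same sum. SPDEF stood at 797, 890.0 and 1085 TPM in replicates 1, 2 and 3, a mean of 924 ± 147 (SD, n = 3), and ranked 112 among 18981 protein-coding entries. Replicate 3 was the highest and replicate 1 the lowest, and even the lowest value was over 10 times that of any other gene of the 10. ELF1 followed at 66.1, 62.6 and 61.1 TPM (63.3 ± 2.56, SD, n = 3), then ELF3 at 51.6, 57.4 and 52.3 TPM (53.8 ± 3.17, SD, n = 3). The ELF1 and ELF3 ranges did not overlap, and their means were 1.18-fold apart with the deposited lengths, while exon lengths from GENCODE 29 put ELF1 at 68.0 and ELF3 at 29.03 TPM. In RNA from whole cultures, fewer expressing cells and less RNA per cell cannot be told apart.

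**Figure D1:**
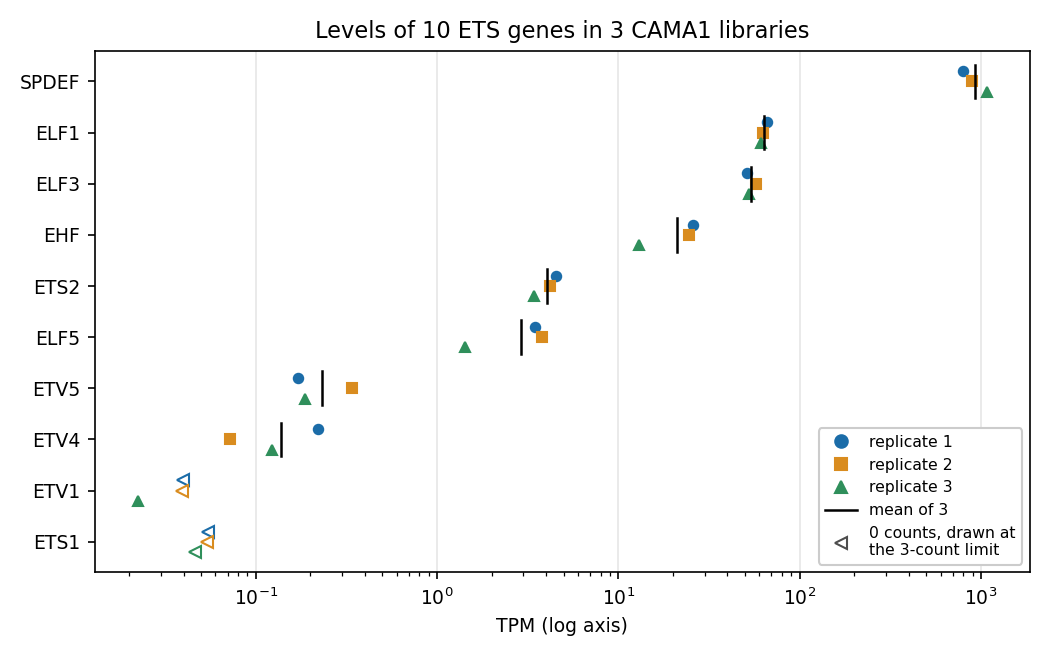
TPM on a log axis for the 10 ETS genes in each of the 3 libraries (points), with the mean as a bar where all 3 libraries had counts; open triangles stand for 0 counts, at the level that 3 counts would give. SPDEF lies at 797 to 1085 TPM, and ETV1, ETV4, ETV5 and ETS1 lie below 0.35 TPM in each library.

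In the lower part of the order, EHF stood at 25.7, 24.5 and 13.0 TPM (21.1 ± 7.03, SD, n = 3) and ETS2 at 4.51, 4.23 and 3.45 TPM (4.06 ± 0.550). ELF5 stood at 3.49, 3.77 and 1.42 TPM (2.90 ± 1.28, SD, n = 3) on 89, 97 and 43 counts. With GENCODE 29 lengths, the same counts gave ELF5 2.04, 2.25 and 0.844 TPM, a mean of 1.71. EHF and ELF5 were each lowest in replicate 3, and replicates 1 and 2 were alike. The ranges of ETS2 and ELF5 overlapped with the deposited lengths, although ETS2 was the higher in 3 of 3 libraries. With GENCODE 29 lengths they did not overlap, as the lowest ETS2 value was 3.55 TPM and the highest of ELF5 2.25 TPM. ETV5 had 7, 14 and 9 counts (0.172, 0.342 and 0.187 TPM), ETV4 6, 2 and 4 counts (0.219, 0.0726 and 0.123 TPM) and ETV1 0, 0 and 2 counts. The ETV5 and ETV4 ranges overlapped, with ETV5 higher in 2 of 3 libraries. ETS1 had 0 counts in each library, which allows up to 0.0547, 0.0542 and 0.0461 TPM.

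With a minimum of 10 counts in each library, 6 of the 10 genes were detected: SPDEF, ELF1, ELF3, EHF, ETS2 and ELF5. Among all 18981 protein-coding entries 67.3% were detected. ETS1 and ETV1 had at most 3 counts in each library, as had 23.8% of protein-coding entries. Both shares were close to this background. The median over the 10 genes was 3.48 TPM, against 8.07 TPM over protein-coding entries. Summed over libraries, the exact Poisson 95% interval was 20.2 to 42.8 counts for the 30 counts of ETV5, 6.20 to 21.0 for the 12 of ETV4 and 0.242 to 7.22 for the 2 of ETV1, covering counting error only.

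The 4 epithelial factors were unequal in level. SPDEF exceeded ELF3, a factor of simple epithelia, in each library, with a log2 ratio of ELF3 over SPDEF of −3.95, −3.95 and −4.37. The mean was −4.09 ± 0.24 (SD, n = 3), against −5.02 with GENCODE 29 lengths and −3.33 from CPM, which are not divided by length. ELF3 exceeded EHF by a log2 ratio of 1.41 ± 0.53 (SD, n = 3; higher in 3 of 3 libraries) with the deposited lengths. With GENCODE 29 lengths that ratio was −0.025, as EHF went to 30.8 TPM, so the order of these genes depends on the gene model. EHF exceeded ELF5 by 2.92 ± 0.24 (SD, n = 3) on the log2 scale, 6.50- to 9.13-fold in single libraries. That log2 ratio was 4.22 with GENCODE 29 lengths and 4.05 from CPM.

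EHF and ELF5 lie next to each other on chromosome 11, at 34621041 to 34663287 and 34478795 to 34513800 (hg38), 107 kb apart with no protein-coding entry of the table between them, and on opposite strands. A second pair of ETS neighbours is ETS1 (chromosome 11, 128458761 to 128587558) and FLI1, 99.0 kb apart, and neither had a count in any library. Another such pair is ERG and ETS2 (chromosome 21, 38805307 to 38824954), 144 kb apart. Neighbours among the other ETS genes were not examined. ETS2 had 182, 172 and 165 counts, and ERG, an endothelial and blood factor, had 4, 6 and 2. ETS2 also exceeded its paralog ETS1, by at least 74.8-fold in each library when ETS1 was set to 3 counts per library.

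For 8 pairs of genes the ratio within each library was tested by flipping signs over the libraries (exact permutation test, two-sided). The smallest p of that test with 3 libraries is 0.25, so no pair could pass 0.05. The 3 ratios of the epithelial factors given above, and ETS2 over ETS1, ETS2 over ERG and ETV4 over ETV1, kept their sign in 3 of 3 libraries with p = 0.25 (exact sign-flip permutation; 0.333 after Benjamini-Hochberg adjustment over the 8 pairs). ETV4 over ETV5 had an exact permutation p of 0.50 (adjusted 0.571) and ETS1 over FLI1, both without counts, gave no difference to test.

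Positions of the other genes on hg38 are chromosome 6, 34537802 to 34556333 for SPDEF, chromosome 1, 202010562 to 202017187 for ELF3, chromosome 13, 40931919 to 41019372 for ELF1, chromosome 7, 13891231 to 13991425 for ETV1, chromosome 17, 43527843 to 43546432 for ETV4 and chromosome 3, 186046317 to 186109112 for ETV5. Counts of the 10 genes were whole numbers in each library, whereas other entries of the table have fractional counts. Exons of ELF3 overlap those of a sense intronic RNA on the same strand in the GENCODE 29 basic set. No gene of that set overlaps the exons of the other 9, with entries of gene type TEC left out of the search.

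Within the whole ETS family, SPDEF made up 66.1 ± 5.09% of the TPM of 28 genes (SD, n = 3; 61.9, 64.5 and 71.7% in replicates 1, 2 and 3). Without division by length its share of the counts was 48.8 ± 5.87%, and its deposited length is 1914 bases. ELF1 took 4.57 ± 0.546%, ELF3 3.88 ± 0.368% and EHF 1.54 ± 0.603% of the TPM. Second in the family stood ERF, a repressor of ETS targets that ERK sends out of the nucleus, at 131, 133 and 107 TPM (124 ± 14.3, SD, n = 3). ERF lay above each of the 9 members other than SPDEF in each library.

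Of the other 18 ETS genes 13 were detected. Broadly expressed factors filled the middle of the order: ELF2 at 51.3 ± 2.29 TPM, GABPA, which controls respiratory chain genes, at 41.4 ± 0.766 TPM, and the ternary complex factor ELK1, a direct ERK target, at 32.5 ± 2.15 TPM (SD, n = 3). ETV3 stood at 19.98 ± 1.45 TPM, ELK4 at 19.98 ± 1.77 TPM, ELF4 at 10.5 ± 1.06 TPM and ELK3 at 10.2 ± 0.481 TPM. Below these stood the repressor gene ETV6 at 7.01 ± 1.04 TPM, ETV2 at 2.96 ± 0.372 TPM, ETV7 at 2.52 ± 1.13 TPM, ETV3L at 1.21 ± 0.151 TPM and SPIB at 0.318 ± 0.0132 TPM. ELF5 and ETS2 thus fell among the lower detected members of the family. The blood factor genes SPI1 and SPIC, and FLI1, had 0 counts in each library, and FEV had 0, 1 and 0. ETV3, ETV3L, ELK4 and SPIB had fractional counts in at least 1 library. In the test of variation between libraries described further on, 4 of the 13 varied against 41.6% of all genes tested. They were ERF, ELK4, ETV6 and ETV7, each lowest in replicate 3, as were 44.8% of all varying genes, and none passed with the negative binomial variance.

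**Figure D2:**
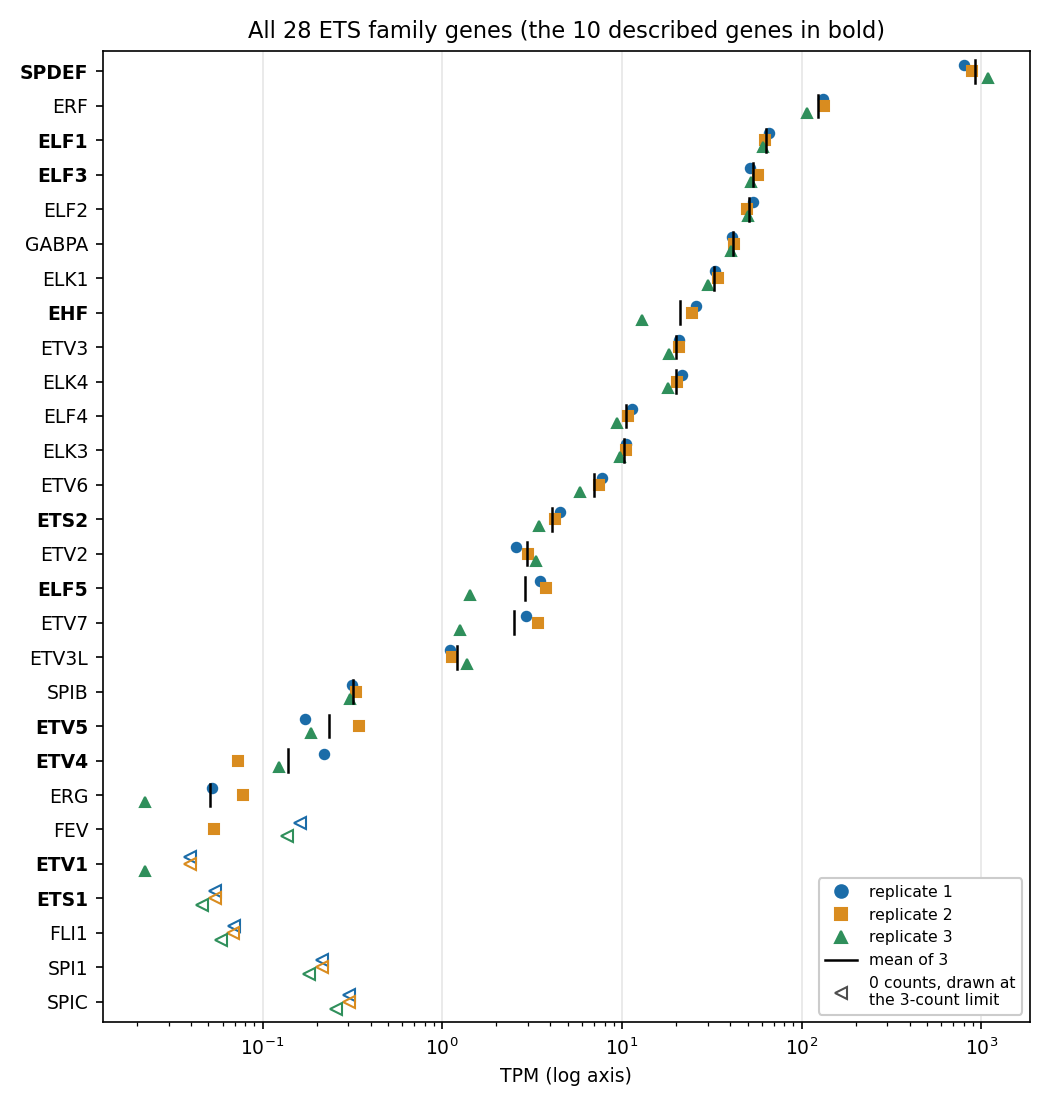
TPM on a log axis for all 28 ETS family genes in each of the 3 libraries, ordered by mean, with the 10 described genes in bold and open triangles at the level of 3 counts where a library had 0. SPDEF stands apart at the top, ELF1, ELF3 and EHF lie among broadly expressed factors, and the PEA3 genes and ETS1 sit at the bottom with blood and endothelial factors.

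ETV1, ETV4 and ETV5 stayed near 0 in cells that expressed the relay above them. All 19 genes of the relay from FGF receptors to ERK were detected, with a median of 62.5 TPM. FGFR1 stood at 88.0 ± 3.86 TPM, the kinase gene MAP2K2 at 161 ± 6.71 TPM and GRB2, an adaptor, at 161 ± 1.24 TPM (SD, n = 3). PTPN11, a phosphatase that passes the signal on, stood at 159 ± 6.93 TPM, and MAPK3, which codes for an ERK kinase, stood at 123 ± 8.22 TPM (SD, n = 3). The 3 PEA3 genes together summed to 0.392, 0.415 and 0.333 TPM in replicates 1, 2 and 3. The highest of the relay was FGFR4, at 861, 900.05 and 1341 TPM.

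The 11 listed regulators of ETS proteins, which comprise repressors, ubiquitin ligase components, coactivators and kinases, were all detected, with a median of 43.9 TPM. The repressor CIC stood at 43.1, 44.9 and 43.6 TPM and its partner gene ATXN1L at 47.8 ± 1.69 TPM (SD, n = 3). Components of the ubiquitin ligase that degrades ETV1, ETV4 and ETV5 were higher, with CUL4A at 130.5 ± 0.936 TPM, DDB1 at 121 ± 5.90 TPM and COP1, listed under an older symbol, at 76.1 ± 2.77 TPM. DET1, the other component, stood at 4.59 ± 0.674 TPM. Messenger levels do not show the activity of any of these proteins or of ERK.

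Other genes known to follow ERK and CIC were mixed, with 9 of 12 detected and a median of 3.71 TPM. CCND1 stood at 263 ± 5.83 TPM, the inhibitor gene SPRED2 at 44.2 ± 1.35 TPM, the phosphatase gene DUSP5 at 24.9 ± 3.76 TPM and SPRED1 at 5.85 ± 0.424 TPM (SD, n = 3). DUSP6, an ERK phosphatase often read together with ETV4 and ETV5, had 91, 154 and 123 counts (2.71, 4.54 and 3.09 TPM). SPRY2, SPRY4 and EPHA4 did not reach 10 counts in each library, as ETV4 and ETV5 did not: SPRY4 had 9, 9 and 12 counts and SPRY2 4, 1 and 2.

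**Figure D3:**
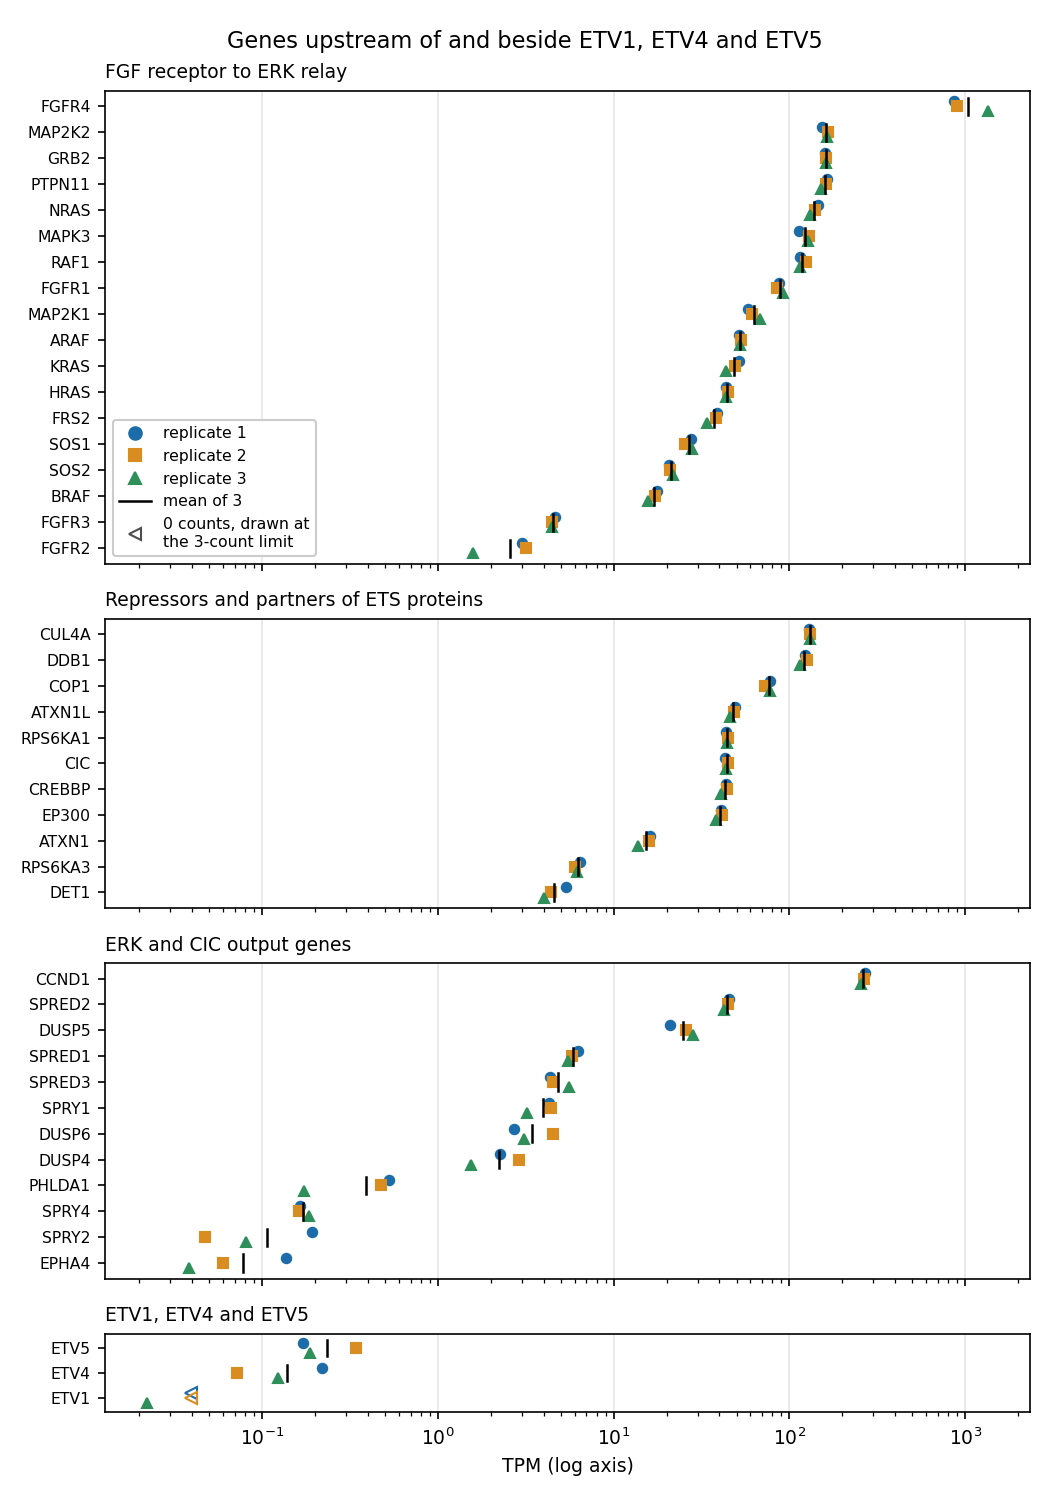
TPM on a log axis in each of the 3 libraries for 18 of the 19 genes of the FGF receptor to ERK relay, repressors and partners of ETS proteins, ERK and CIC output genes, and ETV1, ETV4 and ETV5; bars are means and open triangles mark 0 counts at the level of 3 counts. The relay genes drawn lie between 1.58 and 1341 TPM in single libraries, and the PEA3 genes below 0.35 TPM.

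The epithelial ETS factors were expressed beside other transcription factors of luminal and glandular epithelium, all 12 of which were detected, with a median of 30.997 TPM. GATA3 stood at 803 ± 77.7 TPM, FOXA1, a forkhead pioneer factor, at 487 ± 51.1 TPM, TFAP2A at 319 ± 32.4 TPM and GRHL2 at 109.5 ± 1.96 TPM (SD, n = 3). The SPDEF mean of 924 ± 147 TPM lay above that of GATA3, and SPDEF was the higher in 3 of 3 libraries. In CPM, which are not divided by length, GATA3 was the higher in 3 of 3 libraries. GATA3 had 841, 899 and 1055 CPM, and SPDEF 566, 639.9 and 802 CPM. Markers of luminal epithelium were detected in full, 8 of 8, summing to 8914 to 10600.1 TPM per library, with the keratin genes KRT19, KRT8, KRT7 and KRT18 highest at means of 3256, 2470, 1810 and 1035 TPM. Of 8 endothelial markers none was detected (summed level 0.384 to 0.695 TPM), and CDH5, KDR, TEK, CLDN5 and EMCN had at most 3 counts in each library. Of 8 leukocyte markers 2 were detected, LYZ and CD68, and the summed level of all 8 was 9.56 to 12.4 TPM. PTPRC, which defines leukocytes, had 3, 3 and 2 counts, and CD3E and MS4A1 had at most 1. Of 8 fibroblast markers 3 were detected (summed level 151 to 196 TPM over all 8). COL3A1 at 163 ± 23.4 and COL1A1 at 10.5 ± 0.270 TPM lay above 10 TPM, while COL1A2, PDGFRA, DCN and LUM had no count. Of 8 basal markers 6 were detected (summed level 34.7 to 39.8 TPM over all 8). ITGB4 alone lay above 10 TPM at 21.2 ± 1.78, while CNN1 had 0, 1 and 0 counts.

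EHF and ELF5 had their lowest values in replicate 3 and SPDEF its highest, and of these differences that of EHF alone exceeded the variation usual between these libraries at a gene's level. In a fit over the whole table, each of 14453 genes that passed a filter on low counts was tested for variation between the 3 libraries beyond Poisson counting error, which leaves out all other variation between libraries (edgeR, chi-square test on 2 degrees of freedom, Benjamini-Hochberg adjustment). Values are counts scaled to library size with TMM factors (CPM). EHF stood at 53.7, 52.0 and 28.3 CPM, a 1.90-fold range (edgeR adjusted p = 9.74e-57). ELF5 stood at 3.33, 3.65 and 1.41 CPM, a 2.58-fold range (edgeR adjusted p = 1.40e-06). SPDEF stood at 566, 639.9 and 802 CPM, a 1.42-fold range (edgeR adjusted p = 1.47e-268). Replicate 3 lay below the mean of the other two by 0.90 for EHF and 1.30 for ELF5 on the log2 scale, and above it by 0.41 for SPDEF, where 90% of genes lay between −0.50 and 0.41.

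Of the 6 genes of the list that passed the filter, 4 passed this test, against 41.6% of all genes tested. The 4 that did not enter the test were ETV1, ETV4, ETV5 and ETS1. ELF3 also varied, at 62.1, 70.0 and 65.6 CPM (edgeR adjusted p = 0.00558), while ELF1, at 91.6, 87.9 and 88.2 CPM (0.418), and ETS2, at 6.81, 6.47 and 5.43 CPM (0.165), did not pass. When genes were instead tested against the variation usual at their level, edgeR's trended negative binomial dispersion, 1.21% of genes passed, and EHF was the single gene of the list among them (edgeR adjusted p = 0.000156). ELF5 (0.161), SPDEF (0.228), and ELF3, ELF1 and ETS2 (each at an adjusted p of 1) did not pass. Without replicate 3 the Poisson calls of EHF (edgeR adjusted p = 0.705) and ELF5 (0.811) were lost and that of SPDEF was kept (8.50e-26), where 8.04% of genes were called. The ELF3 call was lost without replicate 1 (0.113) or replicate 2 (0.180), where 32.5% and 37.1% of genes were called. With DESeq2 size factors (41.7% of genes called) or with no filter on low counts (28.3%), the same 4 of the 6 genes passed.

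**Figure D4:**
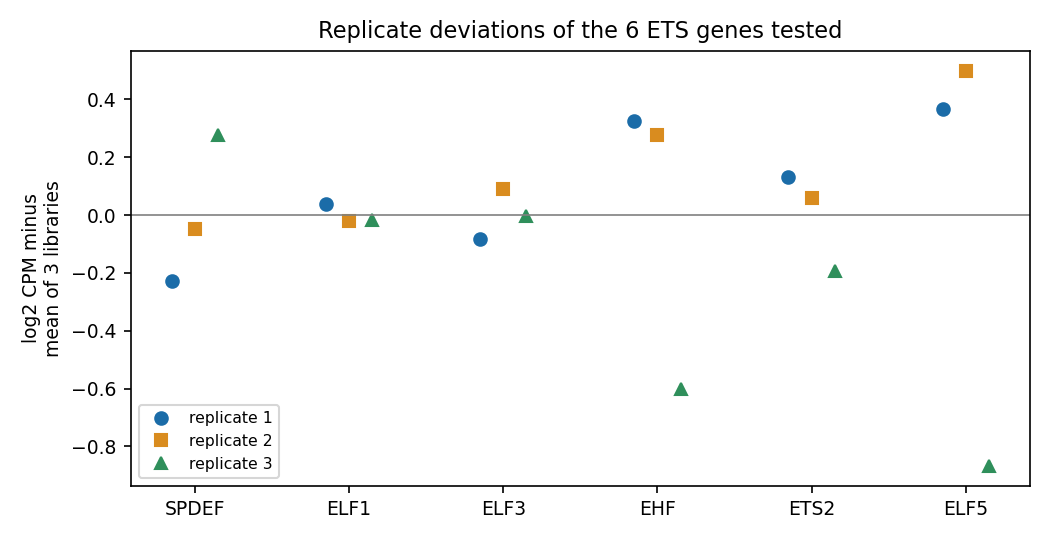
Deviation of each library's log2 CPM from the mean of the 3 libraries (y axis) for the 6 ETS genes that entered the test (x axis), 1 point per library. Replicate 3 is the lowest point for EHF and ELF5 and the highest for SPDEF, and the points of ELF1 lie close together.

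Several other genes were spread over the libraries in the same way as EHF and ELF5 or as SPDEF, and their part in the result was not tested. ETV7 was at 2.43, 2.86 and 1.09 CPM and AGR2, a secretory protein gene linked to SPDEF, at 50.7, 48.4 and 33.5 CPM. Both were lowest in replicate 3 (edgeR Poisson adjusted p = 3.77e-05 and 2.37e-24), where SPDEF was highest. Neither passed with the negative binomial variance (edgeR adjusted p = 0.221 and 0.106). GATA3 at 841, 899 and 1055 CPM, FOXA1 at 552, 606 and 707 CPM and FGFR4 at 1024, 1085 and 1662 CPM were highest there. The lists they came from went both ways. In replicate 3, 4 of the 7 varying genes in the list of GATA3 and FOXA1 were highest and 3 lowest. Of the 13 varying relay genes, 7 were highest and 5 lowest there. Replicate 3 was the lowest library for 44.8% and the highest for 46.6% of the 6018 genes that varied. The immediate early genes, which ERK signalling induces within minutes, were spread differently: all 11 tested varied and all were lowest in replicate 1, as were 35.3% of all varying genes, with EGR1 at 19.4, 466 and 487 CPM and FOS at 4.04, 80.4 and 64.5 CPM. With the negative binomial variance 10 of these 11 passed, against 1.21% of all genes tested. EGR1 (edgeR adjusted p = 3.1e-44) and FOS (1.1e-39) were among the 10. With EGR1, the highest of that list by mean TPM were DUSP1 at 68.8, 240.4 and 194 CPM, IER2 at 56.15, 156 and 153 CPM and JUNB at 61.8, 103 and 114 CPM. Of the 10 ETS genes, ELF1, EHF and ETS2 had their highest CPM in replicate 1, as had 31.1% of all varying genes. ELF1 and ETS2 did not pass the Poisson test, and the EHF call was lost without replicate 3 (edgeR adjusted p = 0.705). SPDEF and ELF3, which passed the Poisson test, were lowest in replicate 1. ETV4 had its highest count there, with 6, 2 and 4 counts. Of the other lists, 13 of 19 relay genes, 4 of 11 regulators, 5 of 9 output genes and 7 of 12 epithelial factors varied by the Poisson test, against the 41.6% of all genes. With the negative binomial variance 1 relay gene passed, FGFR4 (edgeR adjusted p = 0.00102), and none of the regulators, output genes and epithelial factors. Of the 8 luminal markers 7 varied by the Poisson test and 1 with the negative binomial variance. That was TFF1, a secreted trefoil protein gene known to respond to estrogen, at 25.5, 27.3 and 12.6 CPM (edgeR adjusted p = 0.000322). TFF1 was lowest in replicate 3, as was EHF, but of the 7 varying luminal markers 5 were highest and 2 lowest there.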

How the data were processed

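Poly-A RNA of 3 CAMA1 libraries was sequenced on an Illumina NextSeq after stranded library preparation, per the labels' protocols. The authors deposited expected counts per gene, mostly whole but in part fractional, with exon coordinates and gene lengths. TopHat, Subread and featureCounts with hg38 are named in the submitters' processing notes; their versions, the strand setting and how shared reads were handled are not given in the sources used here. TPM was computed here over all 26485 entries with the deposited gene length in bases. The series design calls the replicates biological, but no label says what was separate between them, so p-values measure only the spread of these libraries, and how much of it is technical is unknown.

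Of the entries 23758 matched a RefSeq symbol and 1536 a synonym, and 18981 were protein-coding. Counts were rounded for edgeR 4.0.16 (R 4.3.3; TMM factors 1.01, 1.00 and 0.990; an intercept-only design), where the chi-square sum of Pearson residuals tested variation between replicates at an adjusted p of 0.05. The Poisson test was tried on simulated counts that had Poisson error only, unlike these libraries. The negative binomial test was not tried on simulated data. Log2 ratios had 0.01 TPM added. A count of 0 allows up to 3 counts.

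The 10 genes and all lists were chosen with earlier results of these data known. The rule for genes named took all 10 members, the detected ETS genes with ERG and FLI1, the 4 highest genes of each list and those with at most 3 counts in each library, EGR1 and FOS, and, of the markers for other cells, those reaching 10 TPM; genes named beyond it were chosen after their values were seen. Alternatives were CPM, a pseudocount of 1 TPM, GENCODE 29 lengths, TPM over protein-coding entries, DESeq2 1.42.0 size factors, no filter, negative binomial variance, other count minimums and leaving out each replicate. Some listed genes enter the counts and summed levels of their lists but are not reported here by name.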

Additional observations from a re-analysis of the deposited data

How the results depend on the processing

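The log2 ratio of ELF3 over EHF went from 1.41 to −0.025 with GENCODE 29 exon lengths. The other 7 ratios kept their sign, or stayed at 0 for ETS1 over FLI1, with CPM in place of TPM, a pseudocount of 1 TPM, GENCODE lengths and without each replicate. Log2 ratios with a gene near 0 shrank with the pseudocount of 1 TPM. ETV4 over ETV1 went from 3.20 to 0.174 and ETV4 over ETV5 from −0.774 to −0.115. ETS2 over ETS1 went from 8.66 to 2.33 and ETS2 over ERG from 6.17 to 2.26. The number of genes that varied between replicates was 6018, against 175 with the negative binomial variance, 6021 with DESeq2 size factors and 5797 without a filter on low counts, and ran from 1174 (without replicate 3) to 5435 (without replicate 2) when 1 library was left out. With DESeq2 size factors or no filter each of the 6 members tested kept its call. The number of members detected was 6 at 20 counts in each library or at a mean of 1 TPM, and 8 at 1 count. The level of ELF1 was 68.0 TPM with GENCODE lengths and 67.6 TPM over protein-coding entries, and that of ELF3 57.5 TPM over protein-coding entries. GENCODE lengths moved the mean of ELF3 to 0.540, of ELF5 to 0.591 and of EHF to 1.46 times the deposited-length value. No paired analysis was possible because the series has 1 group, so replicate numbers link no samples across groups. The lowest genes are limited by depth. The 95% Poisson intervals of the summed counts overlapped for ETV1 (0.242 to 7.22) and ETS1 (up to 3.69), and for ETV4 (6.20 to 21.0) and ETV5 (20.2 to 42.8). These counts are not divided by gene length, and an overlap of intervals is not a test of a difference between genes.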

Other observations

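Protease and invasion genes that ETS1, ETS2 and ETV4 are linked to in other systems were low in these cells: 3 of 12 were detected, none reached 10 TPM, and the median was 0.110 TPM. The protease inhibitor gene TIMP1 stood at 6.27 ± 0.409 TPM, PLAUR, the receptor of urokinase, at 3.69 ± 0.570 TPM, and the gelatinase gene MMP9 at 0.912 ± 0.127 TPM on 19, 20 and 29 counts (SD, n = 3). SERPINB5 stood next at 0.230 ± 0.0662 TPM. MMP1, MMP3, MMP7 and PLAU, which codes for urokinase, had 0 counts in each library, while MMP13 and PTGS2 had at most 2.

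Genes linked to the epithelial ETS factors were split. KRT8 stood at 2470 ± 140.0 TPM, MUC1 at 602 ± 23.4 TPM, AGR2 at 119.5 ± 27.4 TPM and the claudin gene CLDN7 at 116 ± 1.89 TPM (SD, n = 3). The milk casein genes CSN2 and CSN3, which ELF5 supports in the lactating gland, had 0 counts in each library, as had SPRR2A, and SPRR1A, a gene of the cornified envelope, had 0, 2 and 3. TGFBR2, a reported target of ELF3, had 37, 28 and 38 counts (0.693 ± 0.0990 TPM). Of the 12 genes 7 were detected.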
